A study of Homo sapiens with 12 samples.

Results

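The regions described here carried a peak of both antibodies in HepG2 cells and no peak in Huh7 cells. They were drawn from 4 deposited peak lists of a chromatin immunoprecipitation and sequencing (ChIP-seq) study of HOXA13. Intervals of all lists on chromosomes 1 to 22 and X were pooled, and intervals that overlapped by at least 1 bp were merged into 140394 regions. A region became a member when it held an interval of anti-HOXA13 in HepG2 and of anti-HA in tagged HepG2, and none of either Huh7 list. This left 1309 members. The members were thus chosen by the authors' peak calls in these same lists, so the fold and significance values given below describe them and test nothing.

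HepG2 and Huh7 are human liver-cancer cell lines, and the labels call both hepatocellular carcinoma lines. The anti-HOXA13 libraries came from cells without a tag, and the anti-HA libraries from stably transfected cells of the same line carrying HOXA13 with an HA epitope tag. The sources used here do not give the promoter of the transgene, its level, or whether the tagged cells are 1 clone. The study had 12 libraries, 1 per condition: for each of the 4 cell populations, 1 of input, 1 of mouse IgG and 1 of the specific antibody. The IgG libraries were not analysed here. Antibody and cell population changed together, so they cannot be told apart, and no difference between lists has a replicate check. The lists hold positions and not genes, so neither the level of HOXA13 nor liver markers could be checked in these cells.

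HOXA13 is a homeodomain transcription factor encoded at the end of the HOXA cluster. It patterns the distal limb, the hindgut and the genitourinary tract during development, and its expression in liver tumours is studied as an abnormal reactivation. In ChIP-seq an antibody pulls down DNA bound by its target, and a peak caller marks places where the pulled-down fragments exceed those expected from input, the same chromatin without antibody. A region marked by an antibody to the protein and by an antibody to a tag on it has been seen through 2 separate reagents. Sequence that is present in more copies in the cell than in the reference collects extra fragments in ChIP and input alike, and such sequence is common next to centromeres and on the short arms of the acrocentric chromosomes.

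Both HepG2 antibodies met in 1484 merged regions, and 175 of these also held a Huh7 interval. The members were thus 88.2% (86.5 to 89.8%) of the regions with both HepG2 antibodies. Brackets after a share are exact (Clopper-Pearson) 95% binomial intervals, which cover counting error only. Absence from Huh7 was more common over all regions of either HepG2 list, at 99.1% of 71545 regions with anti-HOXA13 and 92.4% (92.1 to 92.7%) of 34517 with anti-HA. The anti-HOXA13 list held 71590 intervals, of which 1340 (1.87%, 1.77 to 1.97%) lay in members. The anti-HA list held 34562, of which 1329 (3.85%, 3.64 to 4.05%) did. The Huh7 lists that excluded regions were shorter, with 10404 anti-HOXA13 and 28796 anti-HA intervals. In 1266 members each antibody had exactly 1 interval, and the fullest member pooled 5. Members were a median of 277 bp wide (269 to 285), from 135 to 2102 bp, and were present on all 23 chromosomes. The labels state 50 M reads (M, 1e6) per sample.

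Most members were weak with both antibodies. The deposited fold is the ratio of the ChIP pileup at the summit to the pileup expected from input, with a single fragment added to each pileup. It had a median of 2.90 (2.86 to 2.93) with anti-HOXA13 and ran from 1.59 to 22.9. With anti-HA the median was 2.71 (2.66 to 2.73) and the range 1.47 to 23.1. Over all intervals of each list the medians were 2.84 and 2.83. A median member stood on 9 overlapping anti-HOXA13 fragments and 12 anti-HA fragments, and in 90% of members the folds stayed at or below 3.84 and 3.53. The anti-HA fold was the higher of the pair in 505 members (38.6%, 35.9 to 41.3%). At such depths a fold carries a wide counting error: at 10 and 12 fragments, the values of chr20:24321013-24321344, the folds of 4.04 and 3.59 had 95% Poisson intervals of 2.13 to 7.11 and 1.99 to 6.07.

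A fold of 5 or more with anti-HOXA13 was reached by 22 members (1.68%), where 0.0978% of all anti-HOXA13 intervals reached it. With anti-HA 49 members did (3.74%), where 11.0% of all anti-HA intervals did. Only 4 members reached it with both antibodies, and 1242 (94.9%, 93.5 to 96.0%) with neither. At 3-fold the counts were 505 with anti-HOXA13, against 26.1% of all its intervals, 373 with anti-HA, against 43.3%, and 170 with both. Set out by fold, the share of intervals in members differed between the lists. Of anti-HOXA13 intervals below 3-fold 1.56% lay in members, from 3- to 5-fold 2.63%, from 5- to 8-fold 19 of 64 (29.7%, 18.9 to 42.4%), from 8- to 15-fold 0 of 2, and at 15-fold or more 3 of 4. Of anti-HA intervals 4.87% (4.58 to 5.19%) lay in members below 3-fold, 2.91% from 3- to 5-fold, 1.29% (0.870 to 1.83%) from 5- to 8-fold, 1.15% from 8- to 15-fold, and 5 of 262 (1.91%, 0.622 to 4.40%) at 15-fold or more.

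By the deposited q, 506 members (38.7%) had q of 0.05 or less with anti-HOXA13, where 9.99% of all its intervals did. With anti-HA 598 (45.7%) did, where 51.0% of all its intervals did. Both values passed in 308 members (23.5%), and in 513 members (39.2%, 36.5 to 41.9%) neither passed. A stricter class, −log10 q of 5 or more, is called strong below. It held 154 members with anti-HOXA13 (11.8%), against 0.538% of all its intervals, and 186 with anti-HA (14.2%), against 21.4%. The 82 members strong with both antibodies made up 6.26% (5.01 to 7.72%) of all members, and 1051 (80.3%) were strong with neither.

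**Figure D1:**
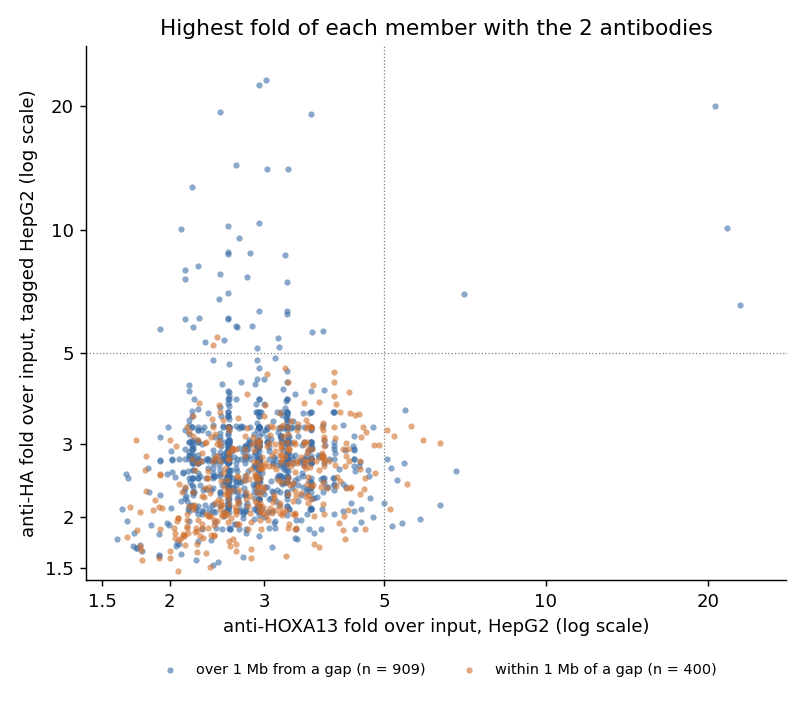
Highest deposited fold of each of the 1309 members with anti-HOXA13 in HepG2 (horizontal axis, log scale) and with anti-HA in tagged HepG2 (vertical axis, log scale). Each point is 1 member, coloured by distance from a gap (a long stretch with no peak in any list), and dotted lines mark 5-fold; 4 members lie above 5-fold on both axes, 45 on the anti-HA axis only and 18 on the anti-HOXA13 axis only.

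The 4 members above 5-fold with both antibodies were well separated from the rest. The most even was chr8:70602311-70602557 (GRCh37). Anti-HOXA13 gave 20.6-fold (95% Poisson interval 16.9 to 24.9) there, 106 fragments where 4.20 were expected. Anti-HA gave 19.95-fold (16.4 to 24.1), 105 fragments where 4.31 were expected, and the summits lay 1 bp apart. The nearest Huh7 interval was 17134 bp away. At chr1:91852750-91853132 the folds were 21.7 (18.3 to 25.5) with anti-HOXA13 and 10.1 (8.68 to 11.6) with anti-HA, from 146 and 183 fragments. The input was raised under both, with 5.77 and 17.3 fragments expected. The member chr12:20704323-20704531 had the highest anti-HOXA13 fold, 22.9 (17.9 to 28.9) from 70 fragments where 2.10 were expected. Its anti-HA fold was 6.55 (4.96 to 8.49), from 55 fragments where 7.55 were expected, so the anti-HA input stood higher there than the anti-HOXA13 input. At chr8:82754626-82754867 the folds were 7.04 (5.19 to 9.34) and 6.98 (5.45 to 8.83), from 46 and 68 fragments, again over raised input. The members on chromosome 12 and at chr8:70602311-70602557 were the only 2 that were strong with both antibodies and had raised input in neither list. No gene annotation or sequence of GRCh37 was used here, so genes and motifs at these places are not given.

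Below these 4, no member reached 5-fold with both antibodies. Among members with no raised input, the order by the worse of a member's ranks in the HepG2 lists continued on the short arm of chromosome 21. There, giving the anti-HOXA13 fold first, chr21:10553055-10553445 stood at 4.31 and 4.02, and chr21:9833732-9834314 at 4.04 and 3.94. Next were chr10:42365502-42365970 (4.04 and 4.25), which lay 10.5 kb from a gap, as defined below, and chr21:10742153-10742354 (4.04 and 4.51). Away from any gap were chr1:91964226-91964940, at 4.04-fold and 3.59-fold, chr20:24321013-24321344, given above, chr20:60106821-60107247, at 4.03-fold and 3.59-fold, and chr5:115249416-115249806, at 3.86-fold and 4.07-fold. The Poisson intervals of all these folds overlap. Over raised input the same order named chr5:49424552-49424982 (4.08 and 3.76) and chr16:33865039-33865633 (5.46 and 3.64).

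Of the 5 members highest with anti-HA, chr8:70602311-70602557 is given above, and the other 4 had 7 to 12 anti-HOXA13 fragments. The highest, chr20:21069967-21070606, had 23.1-fold (19.7 to 26.9) with anti-HA, from 159 fragments where 5.93 were expected. Anti-HOXA13 gave 3.03-fold (1.68 to 5.11) there, 12 fragments where 3.30 were expected. At chr10:10847294-10847798 the anti-HA fold was 22.5 (87 fragments) and the anti-HOXA13 fold 2.93 (7 fragments). At chr6:106503374-106503821 they were 19.3 (69 fragments) and 2.48 (8 fragments). At chr12:27994247-27994628 they were 19.1 (68 fragments) and 3.67 (9 fragments). Of the 49 members at 5-fold or more with anti-HA, anti-HOXA13 stood below 5-fold in 45 and below 3-fold in 33. In those 45 the anti-HOXA13 pileup ran from 5 to 22 fragments with a median of 8, and the fold had a median of 2.66 and a maximum of 3.85. The median over all anti-HOXA13 intervals was 2.84-fold from 7 fragments.

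The converse held with a smaller count. Of the 22 members at 5-fold or more with anti-HOXA13, 12 had under 3-fold with anti-HA. In the 18 that stayed below 5-fold with anti-HA, its fold had a median of 2.61 and a maximum of 3.64. An example is chr1:2601959-2602855, where anti-HOXA13 gave 6.80-fold (4.18 to 10.5) and anti-HA 2.58-fold (1.36 to 4.55). Across the 1309 members the folds of the pair of antibodies had Pearson's r of 0.23 and Spearman's rho of 0.16. In the 929 members with raised input in neither list rho was −0.01. Members of a list share its library and its depth, and the peak calls set a floor to their folds. These coefficients are therefore descriptions.

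A gap here is a stretch of at least 2.9 Mb with no interval in any list. There were 24 of them, 23 on autosomes, and they stood in for the unsequenced centromeres and short arms of GRCh37. On X the single stretch of 3.10 Mb was used, set after its intervals were seen. Within 1 Mb of a gap lay 400 members (30.6%, 28.1 to 33.1%), where 4.10% of all anti-HOXA13 intervals and 3.20% of all anti-HA intervals lay so near. These 400 were spread over 20 chromosomes, and 144 of them were on chromosome 21. Chromosome 4 had 36, chromosome 1 had 31, X had 27, chromosome 5 had 26 and chromosome 8 had 25. Chromosomes 3, 12 and 13 had none.

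Shares of both lists in members were higher near gaps than far from them. Within 100 kb of a gap 177 of 389 anti-HA intervals were in members (45.5%, 40.5 to 50.6%), and 177 of 847 anti-HOXA13 intervals (20.9%, 18.2 to 23.8%). From 100 to 250 kb the shares were 31.0% and 10.7%, from 250 to 500 kb 45.8% and 15.9%, and from 500 to 1000 kb 21.7% and 7.5%. From 1000 to 2000 kb they were 8.22% and 3.13%, from 2000 to 5000 kb 3.53% and 1.61%, and beyond 5000 kb 2.54% (2.36 to 2.73%) and 1.27% (1.18 to 1.36%). The bin from 250 to 500 kb broke the decline, and most of the chromosome 21 members described next fell at such distances. Raised input did not follow the same course. Of the 173 members within 100 kb 77.5% had raised input in both lists, from 100 to 250 kb 60%, from 250 to 500 kb 8.8%, from 500 to 1000 kb 27.4%, from 1000 to 2000 kb 26.2%, from 2000 to 5000 kb 10.5% and beyond 5000 kb 13.4%. The lowest of these values, from 250 to 500 kb, rests on 125 members. The part of input level in the higher shares was not tested.

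**Figure D2:**
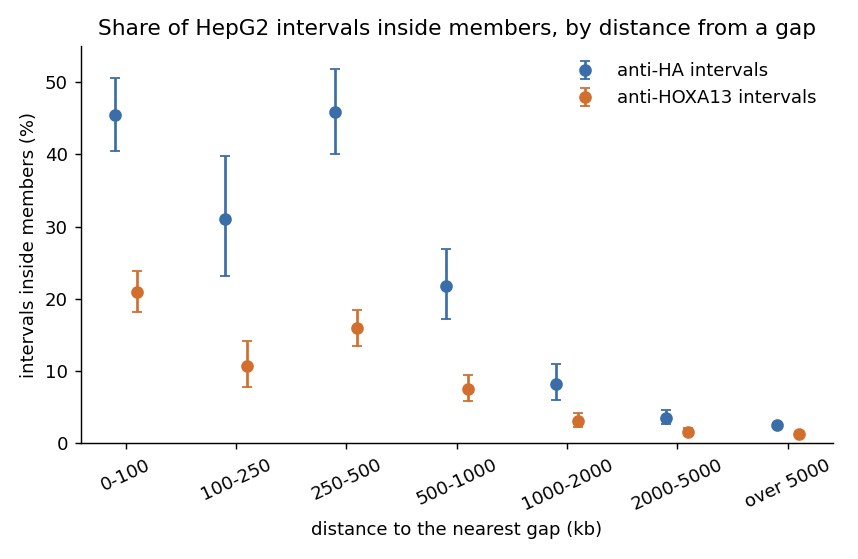
Share of HepG2 anti-HA (blue) and anti-HOXA13 (orange) intervals that lay inside members (vertical axis, %), by distance of the interval from the nearest gap (horizontal axis, kb). Points are shares and bars exact 95% binomial intervals; the shares fall from 45.5% and 20.9% within 100 kb to 2.54% and 1.27% beyond 5000 kb, with a second high bin from 250 to 500 kb.

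Chromosome 21 had the most members per Mb. It carried 151 members, 4.25 per Mb of covered sequence, and 28.7% of its anti-HA intervals were in members. A stretch of its short arm enclosed by a pair of gaps held 142 of them, and 123 formed a single run at chr21:10410310-11179894, where a run links members no more than 100 kb apart. In that run 498 anti-HOXA13 and 229 anti-HA intervals lay side by side, with 4 and 7 intervals of the Huh7 lists. The members of the stretch were weak and alike, with median folds of 3.32 (3.20 to 3.43) and 2.74 (2.64 to 2.90) from 12 and 13 fragments. The expected pileups had medians of 2.62 and 3.77, only modestly above the list backgrounds of 1.73 and 2.62. The widest members of this chromosome, chr21:10803801-10805896 (anti-HOXA13 5.62-fold, anti-HA 3.32-fold) and chr21:10834270-10835982 (3.86 and 2.98, pooling 5 intervals), were in the run.

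The flanks of other gaps held compact runs over heavy input. At chr5:49405661-49441092 there were 26 members, a median of 1084 bp apart, all over raised input in both lists. At chrX:61682321-61723148 there were 20 and at chr16:46395608-46431146 there were 15, all over raised input. In the latter the median expected pileups were 49.3 and 68.5 fragments, and the median folds were 2.11 and 1.86. Chromosome 8 had 13 members at chr8:43793218-43838151 and 11 at chr8:46840946-46854934, on either side of its gap, all over raised input. The Huh7 anti-HA list also held 31 intervals inside the chromosome 16 run and 25 inside the X run. By the rule, none of these could overlap a member. Runs with lower input were at chr4:49093356-49325294, with 29 members of which 10 had raised input in both lists, and at chr1:121328192-121484936, with 20 of which 13 did. The widest member, chr1:142537145-142539246 (2.39-fold and 3.14-fold, over raised input), lay beyond that gap, 1.67 kb from its far edge.

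Beyond 1 Mb of a gap lay 909 members. Most stood singly, with 545 having no other member within 100 kb and 196 in groups of 2 to 4. The other 168 formed 17 runs of at least 5. The densest was chr19:36759600-36798367, with 29 members in 38.8 kb and a median spacing of 1193.5 bp. Its median folds were 3.30 with anti-HOXA13 and 2.26 with anti-HA, over expected pileups of 4.72 and 8.63, and 10 members were strong with anti-HOXA13 and 2 with anti-HA. Huh7 lists had 1 interval of anti-HOXA13 and 0 of anti-HA in that span. A further run on chromosome 19, chr19:37761269-37793923, had 13 members at median folds of 3.64 and 2.58. On chromosome 1, chr1:2583667-2615816 had 12 members at 4.03 and 2.58. In all 3 the anti-HOXA13 median was the higher, as it was in most of the 17 runs and over all members (2.90 and 2.71). The run with the highest input was chr8:86753144-86837170, with 6 members, all over raised input, at median folds of 2.50 and 1.87.

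Members on chromosome 20 were many, weak and loosely spaced. The chromosome held 216 members, 3.61 per Mb, or 16.5% (14.5 to 18.6%) of all members, where 9.98% of all anti-HOXA13 and 6.63% of all anti-HA intervals lay on it. This excess held for the full lists and not for stricter ones. At q of 0.05 or less chromosome 20 held 4.56% (2.52 to 7.53%) of members, where it held 15.4% of anti-HOXA13 and 4.71% of anti-HA intervals. At −log10 q of 5 or more it held 0% (0 to 4.40%) of members, and 1.82% and 2.92% of the lists. With both lists held to their 10404 best intervals by p it held 2.93% (1.08 to 6.26%) of members, and 15.2% and 3.23% of the lists so shortened. The anti-HA share lay inside the members' interval each time, and the anti-HOXA13 share did at −log10 q of 5 or more. Of the 17 runs away from gaps 10 were on chromosome 20, with 83 members, and these runs were long and loose. The longest, chr20:60106821-60503558, spread 16 members over 397 kb at a median spacing of 25197 bp, among 255 anti-HOXA13 and 50 anti-HA intervals. The 207 chromosome 20 members away from gaps had median folds of 2.93 (2.90 to 3.06) and 2.76 (2.71 to 2.81), from 8 and 10 fragments. Their expected pileups were near background, at 1.89 and 2.82, and their summits lay 91 bp (72 to 108) apart. Among them 2 reached 5-fold with anti-HA, 1 of them chr20:21069967-21070606, the highest anti-HA member, and 0 of 207 did with anti-HOXA13.

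Members away from gaps were unevenly spread over the chromosomes. Away from gaps, chromosomes 2, 6, 14, 16 and 20 had the most anti-HOXA13 intervals per Mb. There they held 563 of 909 members (61.9%, 58.7 to 65.1%), 47.1% of anti-HOXA13 intervals and 42.4% of anti-HA intervals. Of the anti-HA intervals away from gaps, 9.31% (8.14 to 10.6%) were in members on chromosome 20, 4.81% (3.84 to 5.93%) on 16, 3.11% on 2, 2.87% on 14, 1.84% (1.41 to 2.36%) on 6 and 0.588% (0.282 to 1.08%) on 3. The anti-HOXA13 list had 117, 64.6, 47.6, 33.9, 34.7 and 15.2 intervals per Mb there, in the same order. The order was not strict. Chromosomes 21, 22, 17, 1 and 4 also had shares above that of 6, at 2.62%, 2.33%, 2.27%, 2.15% and 1.90%. Their anti-HOXA13 densities were lower than that of 6, at 16.2, 24.2, 26.2, 19.8 and 14.7 intervals per Mb. Chromosome 19 stood apart, with 10.8% (8.36 to 13.7%) at 21.05 intervals per Mb, through the pair of runs above. Over the 23 chromosomes, which share the same libraries, the density of anti-HOXA13 intervals and the share of anti-HA intervals in members had r of 0.64 and rho of 0.76. Without chromosomes 16 and 20, the farthest from the median density, r was 0.23 and rho 0.70. A denser list meets another list more often by position alone, and the part of this in the members was not tested.

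**Figure D3:**
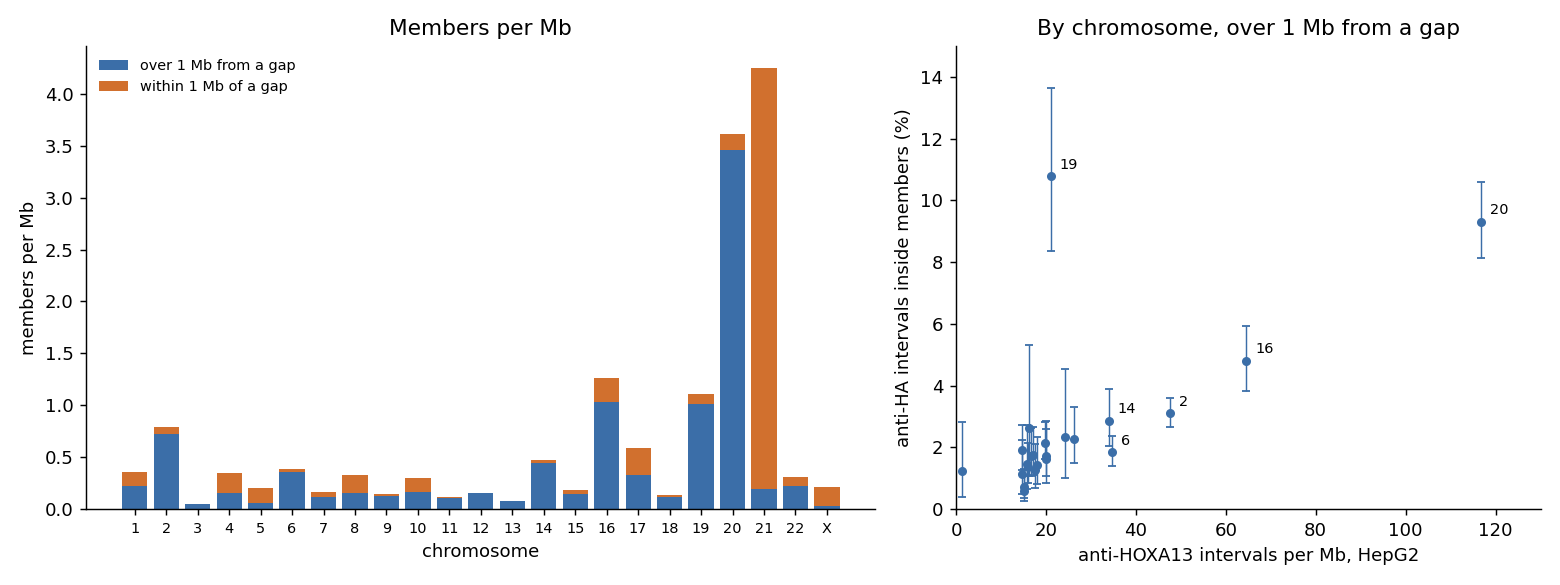
Left, members per Mb of covered sequence on each chromosome, stacked by distance from a gap (blue, over 1 Mb; orange, within 1 Mb): chromosome 21 stands at 4.25, nearly all near gaps, and chromosome 20 at 3.61, nearly all away from them. Right, for intervals over 1 Mb from a gap, the share of anti-HA intervals inside members (%, bars are exact 95% binomial intervals) against anti-HOXA13 intervals per Mb, 1 point per chromosome; chromosome 20 lies at 117 per Mb and 9.31%, and chromosome 19 at 21.05 per Mb and 10.8%.

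Input level divided the members further. An interval was called raised where its expected pileup was over 3 times the background of its list, that is above 5.18 fragments with anti-HOXA13 and 7.86 with anti-HA. Raised input lay under 341 members (26.1%) in the anti-HOXA13 list, where 1.60% of all its intervals had it, and under 348 (26.6%) in the anti-HA list, where 16.9% did. In 309 members (23.6%, 21.3 to 26.0%) it was raised in both, in 71 in only 1 list, and in 929 (71.0%, 68.4 to 73.4%) in neither. The inputs came from separate cell populations, and under the members they ran in parallel: the expected pileups had r of 0.98 and rho of 0.83. The ChIP pileups had r of 0.94 and rho of 0.75, and the folds, which divide one by the other, had rho of 0.16. In the 929 members with raised input in neither list the expected pileups ran less closely, with r of 0.65 and rho of 0.57. The ChIP pileups of these 929 had r of 0.39 and rho of 0.40. Every member is a called peak, so its ChIP pileup had to exceed the expected one. The coefficients of ChIP pileups and folds are thus partly set by the peak calls, and how far was not tested. Near gaps 186 of 400 members (46.5%, 41.5 to 51.5%) had raised input in both lists, and away from them 123 of 909 (13.5%, 11.4 to 15.9%).

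Raised input went with tall but shallow peaks. Members over raised input in both lists stood on a median of 35 (32 to 39) anti-HOXA13 and 46 (42 to 50) anti-HA fragments, where 12.6 and 20.5 were expected. Members with raised input in neither stood on 8 and 11, where 2.05 and 2.92 were expected. Their folds went the other way, with medians of 2.54 (2.45 to 2.62) and 2.14 (2.08 to 2.20) over raised input, and of 2.93 and 2.76 without it. The members strong with both antibodies were nearly all of the first kind. Of the 82, 79 (96.3%, 89.7 to 99.2%) had raised input in both lists and 73 (89.0%, 80.2 to 94.9%) lay near a gap. Their median folds were 2.70 and 2.24, both below the medians of all members. The 49 members at 5-fold or more with anti-HA were of the other kind, with 4 over raised anti-HA input and 2 near a gap. Peaks were called on p, which a lower fold can pass where more fragments are expected. The lowest member folds were 1.59 and 1.47 over raised input in both lists, and 1.92 and 1.87 with it in neither. The part of this threshold in the lower folds over raised input, and in the strong class, was not tested.

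**Figure D4:**
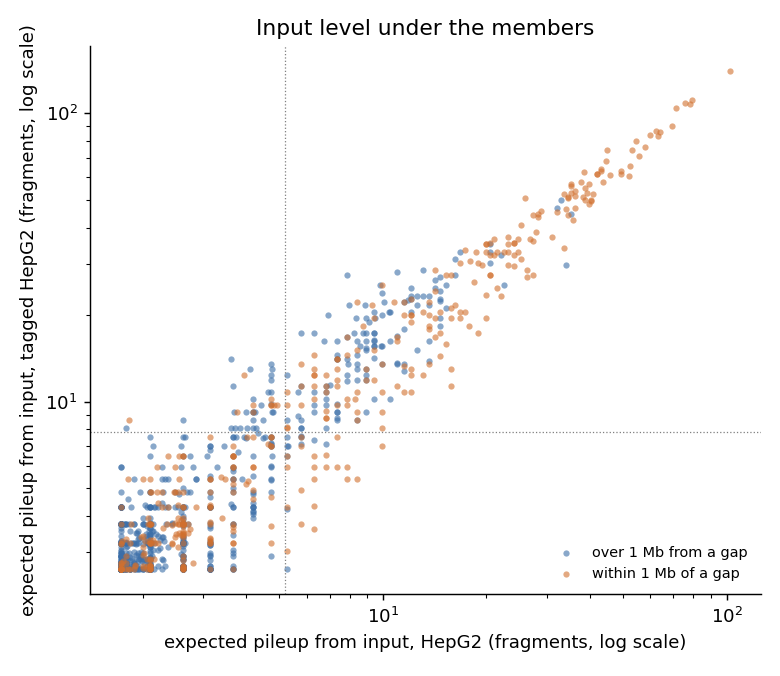
Pileup expected from input under each member, in fragments on log scales, with the input of HepG2 on the horizontal axis and of tagged HepG2 on the vertical axis. Each point is 1 of 1309 members, coloured by distance from a gap, and dotted lines mark 3 times the background of each list (5.18 and 7.86). The points follow a diagonal (r of 0.98 over all members, and 0.65 in the 929 with raised input in neither list). The upper right corner is mostly members within 1 Mb of a gap.

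The position of the summits within a member was not part of the rule, which asked only for overlap. The summits of the antibodies lay a median of 59 bp (56 to 65) apart, with quartiles of 24 and 131 bp. They were within 50 bp in 572 members (43.7%, 41.0 to 46.4%) and within 100 bp in 870 (66.5%, 63.8 to 69.0%). In 686 members (52.4%) each summit was inside the interval of the other antibody. In 457 (34.9%) the shorter interval was wholly inside the longer. The chromatin was sheared to about 200 bp per the labels, and 1159 members (88.5%, 86.7 to 90.2%) had summits within that distance. The farthest were 1034 bp apart, in chr19:36768431-36769911, where each antibody had 2 intervals. The highest intervals of the antibodies, whose summits were used, did not overlap each other there.

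Summits were closest where input was raised. Over raised input in both lists the median distance was 25 bp (20 to 28), and 218 of 309 members (70.6%, 65.1 to 75.6%) were within 50 bp. With raised input in neither it was 75 bp (70 to 83), and 329 of 929 (35.4%, 32.3 to 38.6%) were. In the 82 members strong with both antibodies it was 9.5 bp (8 to 13). More fragments also fix a summit more closely, so height, input and distance moved together and cannot be told apart here. Near gaps but without raised input the median was 91 bp (76 to 112), which is no closer than in members away from gaps without raised input, at 71.5 bp (65 to 79). The members at 5-fold or more with anti-HA had a median of 68 bp (35 to 104), in the range of members as a whole.

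**Figure D5:**
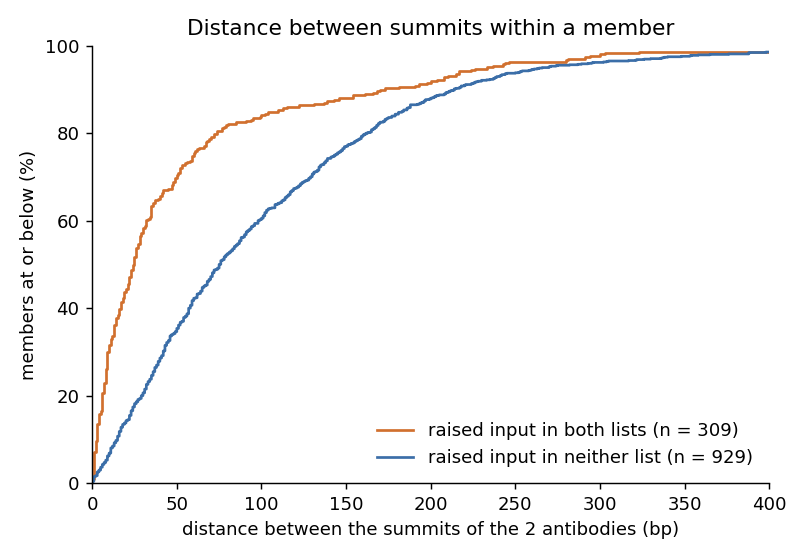
Cumulative share of members (vertical axis, %) by distance between the anti-HOXA13 and anti-HA summits (horizontal axis, bp, drawn to 400 bp), for 309 members with raised input in both lists (orange) and 929 with raised input in neither (blue). At 50 bp the curves stand at 70.6% and 35.4%, and by 200 bp they have drawn close at 91.9% and 88.1%.

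Absence from Huh7 meant no overlap, and some members had a Huh7 interval nearby. The nearest Huh7 interval lay a median of 27732 bp (24305 to 32081) away. It lay within 1 kb of 140 members (10.7%, 9.07 to 12.5%), where the same was so for 2.05% of regions held by HepG2 anti-HOXA13 alone and 4.95% of those held by HepG2 anti-HA alone. Within 100 kb it lay for 973 (74.3%), between the 66.9% and 79.9% of those sets. Near gaps 95 of 400 members (23.8%, 19.7 to 28.2%) had one within 1 kb, where 5.29% and 5.82% of the regions of those sets near gaps did. Away from gaps 45 of 909 (4.95%, 3.63 to 6.57%) did, against 1.94% and 4.93%. The median distance was 3132 bp over raised input in both lists and 46454 bp (39988 to 52912) with raised input in neither. In the members strong with both antibodies it was 756 bp (470 to 1085). In the 49 members at 5-fold or more with anti-HA it was 22238 bp (14617 to 46998), and on chromosome 20 away from gaps 123309 bp. The Huh7 lists were shorter, and absence from them is not a measured difference in binding.

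The members were set beside the regions that the same antibody shared between the lines. Regions held by anti-HA in both lines and by no anti-HOXA13 list numbered 2255. Of these, 1.11% (0.719 to 1.63%) lay near a gap and 3.50% (2.78 to 4.35%) on chromosome 20, against 30.6% and 16.5% of members. Their HepG2 anti-HA fold had a median of 3.01, and 19.1% (17.5 to 20.8%) reached 5-fold, against 2.71 and 3.74% in members. Raised HepG2 anti-HA input lay under 48.5% (46.4 to 50.6%) of them, against 26.6% of members. Regions held by anti-HOXA13 in both lines and by no anti-HA list numbered 211. Of these, 6.64% (3.67 to 10.9%) lay near a gap and 15.2% (10.6 to 20.7%) had raised HepG2 anti-HOXA13 input, against 30.6% and 26.1% of members. HepG2 anti-HOXA13 intervals found in no other list, 69599 regions, lay near a gap in 3.37% and had raised input in 0.842%. These sets are all from single libraries, so no test of the differences was made, and the intervals cover counting error only.

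The edge of the rule was a single base. The smallest overlap was 1 bp, in 3 members, which were chr2:127199838-127200205 (anti-HOXA13 2.57-fold, anti-HA 2.44-fold), chr21:11150294-11150664 (1.92 and 2.54) and chr5:168018705-168019233 (2.66 and 2.45). In 34 members the overlap was 10 bp or less, and in 1030 (78.7%) it was at least 50% of the shorter interval. Just outside, 4 pairs of HepG2 intervals touched with 0 bases between them and did not count. Among these were anti-HOXA13 at chr16:5394205-5394367 (2.87-fold) beside anti-HA at chr16:5393999-5394204 (2.46-fold), chr2:89857234-89857625 (3.37) beside chr2:89856999-89857233 (2.56), and chr20:19277420-19277522 (3.30) beside chr20:19277211-19277419 (2.44). A further edge was the Huh7 lists. The member chr21:11136076-11136283 (2.24-fold and 1.87-fold) lay 4 bp from a Huh7 anti-HOXA13 interval of 2.77-fold. The members chr17:7210582-7210917 and chr21:9835366-9835667 lay 19 and 43 bp from a Huh7 anti-HA interval of 1.89-fold and 3.06-fold. The 175 regions left out for a Huh7 interval had HepG2 folds with medians of 2.38 and 2.03, in the order anti-HOXA13 and anti-HA.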

How the data were processed

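ChIP-seq peak lists of 4 antibody libraries, each against the input of its own cells, were used. Per the submitters' processing notes, BWA aligned the reads and MACS2 called the peaks. The sources used here do not give versions or thresholds, and the lowest deposited −log10 p was 2.00 in both HepG2 lists. The notes name GRCh38, but the sequence names, with decoy and GL000 contigs, are those of GRCh37 with decoy. Coordinates are therefore given as GRCh37, 1-based, and no genes or sequences were assigned. The authors' deposited fold is a ratio of ChIP to expected pileup at the summit, with a single fragment added to each pileup. The deposited significance values are −log10 p and −log10 q. The last deposited column gives the summit as an offset from the interval's start, another kind of number. All values per interval are the authors'. A member with several intervals of a list took that list's highest fold and the summit of that interval.

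Expected pileups and ChIP pileups (whole numbers) were solved from fold and p with MACS2's published formulas, within a tolerance of 0.01. This gave a solution for 100% of anti-HOXA13 and 99.997% of anti-HA intervals in HepG2. The most common expected pileup, 1.73 and 2.62, was taken as the background, and it was also the lowest. On simulated data 10000 of 10000 pileups and 300 of 300 planted members were recovered. The simulated expected pileups stopped well short of the highest under members, 102 and 140 fragments. Folds as low as the lowest of members, 1.59 and 1.47, were not simulated either, so the recovery does not cover such intervals.

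Shares carry exact (Clopper-Pearson) 95% intervals, folds 95% Poisson intervals of the ChIP pileup, and medians 95% order-statistic intervals, all for counting error only. With 1 library per condition no test between conditions was made. Members and lists were chosen with earlier results of these data known. Named regions were the first 10 by the worse of a member's fold ranks in the HepG2 lists, and the first 10 of that order without raised input. Also named were the 5 highest per list, the 3 widest, the 3 pooling most intervals, and the 3 at each edge of the rule. The distance bins, runs, sets compared and the classes of 3- and 5-fold were chosen after the data were seen. Alternatives changed the overlap, the thresholds, list length, the Huh7 exclusion, chromosome 20, raised input and gaps. Software was matplotlib 3.10.9, scipy 1.17.1, pandas 2.3.3 and numpy 2.4.6 under Python 3.11.15.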

Additional observations from a re-analysis of the deposited data

Results flagged for a closer look

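Outside the chromosomes used, regions of both HepG2 antibodies and no Huh7 list were frequent, and were noted because no comparison of the report uses them. The decoy sequence, which gathers human sequence missing from the chromosomes of the reference, held 3145 of them. Y held 169 and the unplaced contigs held 247. The number expected by position alone was not computed. With the regions that also touched a Huh7 interval, both HepG2 antibodies met in 4054 of 10735 merged regions on the decoy, 186 of 480 on Y and 322 of 1517 on the contigs. Median folds of the regions without a Huh7 interval were 3.49 with anti-HOXA13 and 2.62 with anti-HA on the decoy, with maxima of 10.9 and 6.33. On Y the medians were 2.81 and 2.25, and on the contigs 3.04 and 2.35. The 1309 members had medians of 2.90 and 2.71.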

How the results depend on the processing

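Of 78 alternative values, 22 stayed within 1.5 times the main count, or within the counting interval of the main share or median, and 56 moved beyond it. Under both q thresholds and at equal list length the share of members on chromosome 20 was below that of either list so held. Its interval held the anti-HA share each time. The shares of the lists in members count nearly the same members, so their order follows list length. Anti-HOXA13 had the lower share in the full lists and the higher under both q thresholds, where its list was shorter (7149 against 17620 and 385 against 7404 intervals). At equal length the shares were 2.02% (1.76 to 2.31%) and 1.98% (1.72 to 2.27%), which cannot be told apart. No paired analysis was possible because each condition has 1 library, and for the same reason no library could be left out. In each group below the values are, in order and where they moved, the number of members (1309), the share of anti-HA (3.85%) and anti-HOXA13 (1.87%) intervals in members, the median summit distance (59 bp), the shares with raised input in both lists (23.6%), on chromosome 20 (16.5%) and near a gap (30.6%), and the median folds with anti-HOXA13 (2.90) and anti-HA (2.71). With HepG2 intervals of q 0.05 or less they were 307, 1.79%, 4.39%, 29 bp, 64.8%, 4.56%, 67.4%, 3.11 and 2.56. With −log10 q of 5 or more they were 82, 1.11%, 21.3%, 9.5 bp, 96.3%, 0%, 89.0%, 2.70 and 2.24. With both HepG2 lists held to their best 10404 intervals by p, the length of the shortest list, they were 205, 1.98%, 2.02%, 22 bp, 77.1%, 2.93%, 69.3% and, for anti-HA, 2.49. An overlap of 50% of the shorter interval gave 3.04%, 1.47%, 46 bp, 28.6%, 14.3% and 34.4%. Without intervals over raised input the values were 3.26%, 1.34%, 75 bp, 22.6% on chromosome 20, 19.7% near a gap and, for anti-HA, 2.76. With no Huh7 interval within 1 kb they were 3.43%, 1.67%, 17.7% raised, 26.1% near a gap and, for anti-HA, 2.74. When only Huh7 intervals of q 0.05 or less excluded a region they were 4.07%, 1.98% and 26.5% raised. Without chromosome 20 they were 3.45%, 1.74%, 27.8% raised and 35.8% near a gap. Without intervals within 1 Mb of a gap, an alternative chosen after seeing the data, they were 2.73%, 1.34%, 67 bp, 13.5% raised, 22.8% on chromosome 20 and, for anti-HA, 2.76.

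A stricter threshold moved the members towards gaps and raised input and away from chromosome 20; the cause was not tested. The rule counts any overlap of lists of unequal length and depth, called on single libraries at p of about 0.01, so most members rest on about 10 fragments per antibody. Lists of problem regions, repeat annotation and gene annotation of GRCh37 were not used here. The IgG libraries were not analysed here, so fragments that any antibody would bring down were not measured.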
